A study of Danio rerio with 4 samples.

Results

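The data cover 7 zebrafish genes of somite segmentation: the paraxial mesoderm regulators msgn1, tbx6 and mespab, the segmentation clock genes her1, her7 and her11, and dld, which encodes a Notch ligand. They were chosen by gene name, with earlier results of these data known, and make up 7 of the 2477 genes in the authors' deposited table. Their levels were measured in primordial germ cells, the precursors of eggs and sperm, of AB strain embryos at 13 hours post fertilization. Embryos carried either a dead end morpholino (dead end MO, 2 libraries) or a control morpholino (control MO, 2 libraries), and the cells were isolated by flow cytometry on EGFP specific to the germline. A morpholino is a synthetic antisense oligonucleotide, while Dead end binds RNA and is made in the germ cells of vertebrates. The single comparison asks how germ cell transcripts differ when Dead end is reduced.

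The table holds 1 FPKM value per gene and group, where FPKM is a fragment count corrected for the length of the transcript and the size of the library. Each value therefore combines the 2 libraries of a group, no spread between libraries could be computed here, and the depth is unknown. All 2477 genes have an authors' q under 0.05, so every gene that is in the table is called, and genes outside it, the targeted dnd1 included, were not analysed here. Of 27 listed germ cell symbols the table held 15, of which 14 were lower with dead end MO, where 868 of all 2477 genes were lower. Among these, nanos3 stood at 906 FPKM with dead end MO and 3543 FPKM with control MO, and ddx4 (vasa) at 318 FPKM with dead end MO and 904 FPKM with control MO. These markers of the labelled cell type were thus present in both groups. Other listed germ cell genes were low with dead end MO. For example, piwil2 stood at 3.25 FPKM and tdrd6 at 2.29 FPKM, against 38.3 and 17.0 FPKM with control MO. The listed gene that was higher was hook2, at 44.4 FPKM with dead end MO and 4.96 FPKM with control MO. In such bulk samples, a change in the share of cells that make a transcript and a change in its amount per cell cannot be told apart.

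Somites, the blocks of tissue that give rise to vertebrae and skeletal muscle, bud one after another from the presomitic mesoderm at the tail end of the embryo. Their rhythm is set by a clock in which Her proteins, transcriptional repressors of the Hairy and Enhancer of split family, switch off their own genes, while Delta ligands and Notch receptors keep neighbouring cells in step. T-box and Mesogenin transcription factors give the presomitic cells their identity, and Mesp factors mark where the next boundary forms. This tissue is somatic, and germ cells are set aside from it early in development.

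All 7 genes were higher with dead end MO, with ratios between 10.9-fold and 61.3-fold and a median ratio of 20.9-fold. Over all genes with both values above 0 the median was 2.40-fold, and over the higher ones alone it was 2.96-fold. The count of 7 of 7 stands beside a share of 65.0% of all genes that were higher with dead end MO in the authors' deposited table, so the direction by itself does not set these genes apart. A ratio of at least 10-fold was reached by 7 of 7, against 2.63% of the 2245 genes with both values above 0. Since the 7 genes were chosen with earlier results of these data known, the size of their ratios is a description and is partly set by that choice: other genes of the clock, such as dlc (9.08-fold), hes6 (6.45-fold) and her12 (4.16-fold), lay under 10-fold. A ratio of at least 20-fold, a limit set after seeing the data, was reached by 5 of 7, against 0.356% (8 genes, of which 5 are these). Just past that limit were her1 and tbx6, at 20.9-fold each. Once 1 FPKM was added to both values, for this count also a choice made after seeing the data, the limit was reached by 3 of 7, against 0.178%. At an authors' q under 0.01 all 7 were still called higher, where 42.6% of the genes of the authors' deposited table were. Of the 7, msgn1 (authors' q = 0.00992) and mespab (authors' q = 0.00901) lay just under that limit. Genes that were higher and also met a minimum level were then counted, still as a share of the 7 genes and of all 2477 genes. A minimum of 1 FPKM for the larger value left 7 of 7 and 64.6%. A minimum of 5 FPKM for both values left 5 of 7 and 52.7%. These are not shares among the genes that met the minimum. The genes her11 and mespab dropped out by level and not by direction, since they lay under 5 FPKM with control MO.

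**Figure D1:**
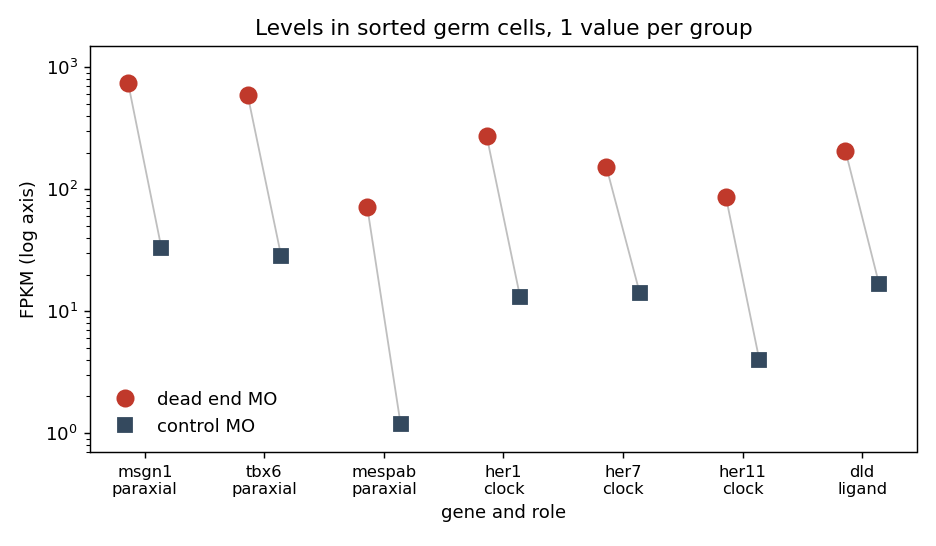
Level of each gene in FPKM (log axis) with dead end MO (circles) and control MO (squares), 1 value per group and gene, joined by a line. The 7 values with dead end MO lie between 72.3 and 751 FPKM and the 7 values with control MO between 1.18 and 32.8 FPKM.

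The paraxial mesoderm regulators held both the most and the least abundant transcripts of the set. The bHLH factor gene msgn1 (ENSDARG00000070546, chromosome 4, 149699 to 340476, positions taken as GRCz10), which drives tailbud cells into paraxial mesoderm fate, stood at 751 FPKM with dead end MO and 32.8 FPKM with control MO. That is a ratio of 22.9-fold, with q = 0.00992 in the authors' deposited table. Its level was above 97.2% of the genes of the table with dead end MO and above 72.2% with control MO. The locus given for msgn1 spans 190778 bases, and 85 of the 2477 genes have a locus at least as long. A locus of that size can join several gene models.

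The T-box factor gene tbx6 (ENSDARG00000011785, chromosome 12, 3875778 to 3886305) is the zebrafish gene formerly called tbx24, whose loss gives the fused somites phenotype. It stood at 597 FPKM with dead end MO and 28.6 FPKM with control MO, a ratio of 20.9-fold (q = 0.00107 in the authors' deposited table). The levels of msgn1 and tbx6 thus lay close to each other within each group. Together these are the most abundant of the 7 in both groups: msgn1 made up 35.1% of the summed FPKM of the 7 genes with dead end MO and 29.7% with control MO, and tbx6 27.9% with dead end MO and 25.9% with control MO.

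The third paraxial gene, mespab (ENSDARG00000068761, chromosome 25, 10918620 to 10919879), encodes a bHLH factor of the anterior presomitic mesoderm that marks the anterior compartment of the forming somite. It stood at 72.3 FPKM with dead end MO and 1.18 FPKM with control MO, and its ratio of 61.3-fold was the highest of the 2245 genes with both values above 0 (q = 0.00901 in the authors' deposited table). The size of that ratio rests on the low control value: with 1 FPKM added to both values it was 33.6-fold. The paralog genes mespaa, mespba and mespbb were not analysed here.

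The clock genes spanned a narrower range of levels. The gene her1 (ENSDARG00000014722, chromosome 5, 68017990 to 68024396), a core oscillating repressor, stood at 272 FPKM with dead end MO and 13.0 FPKM with control MO, a ratio of 20.9-fold (q = 0.00107 in the authors' deposited table). Its partner in the core loop, her7 (ENSDARG00000017917, chromosome 5, 68036502 to 68037818), stood at 153 FPKM with dead end MO and 14.1 FPKM with control MO. Its ratio of 10.9-fold was the smallest of the set (q = 0.00107 in the authors' deposited table). The level of her1 was 1.78 times that of her7 with dead end MO and 0.923 times with control MO, so the order of the 2 genes differed between the groups. The third clock gene, her11 (ENSDARG00000002707, chromosome 14, 30198167 to 30200653), is transcribed in stripes of the anterior presomitic mesoderm and also at the boundary of midbrain and hindbrain. It stood at 86.6 FPKM with dead end MO and 3.98 FPKM with control MO, a ratio of 21.8-fold (q = 0.00381 in the authors' deposited table).

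The Delta ligand gene dld (ENSDARG00000020219, chromosome 13, 5947111 to 5953343), whose product works together with that of dlc, acts in the synchrony of the clock and in the choice of neurons in the neural plate. It stood at 207 FPKM with dead end MO and 16.9 FPKM with control MO, a ratio of 12.2-fold (q = 0.00107 in the authors' deposited table). The same letters also serve as the symbol of a mitochondrial dehydrogenase gene in other annotations. In this table that gene is listed as dldh (ENSDARG00000008785), on another chromosome, with 12.6 FPKM with dead end MO and 32.1 FPKM with control MO.

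Summed over roles, the 3 paraxial genes gave 1421 FPKM with dead end MO and 62.6 FPKM with control MO, a ratio of 22.7-fold. The 3 clock genes gave 511 FPKM with dead end MO and 31.0 FPKM with control MO, a ratio of 16.5-fold. The medians of the single gene ratios lay closer, at 22.9-fold for the paraxial and 20.9-fold for the clock genes. No error was computed for the sums, so a difference between the roles is not resolved. With dead end MO the order of levels was msgn1, tbx6, her1, dld, her7, her11 and mespab. With control MO it was msgn1, tbx6, dld, her7, her1, her11 and mespab, so the order differed only in the place of her1 relative to dld and her7. The lowest and highest of the 7 were 10.4 times apart with dead end MO and 27.8 times apart with control MO. As there is 1 value per group, it is unknown which neighbours in these orders differ beyond the spread between libraries.

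An error for each ratio can be read from the statistic in the authors' deposited table if that statistic is taken as the log change divided by its standard error, which the file headers do not state. On that reading the log2 ratio was 4.38 ± 0.52 for tbx6, 4.39 ± 0.56 for her1, 3.61 ± 0.49 for dld and 3.44 ± 0.66 for her7 (± implied SE). It was less certain for the other members, with 4.44 ± 1.02 for her11, 4.52 ± 1.35 for msgn1 and 5.94 ± 1.55 for mespab. The implied error of msgn1 exceeded that of 97.9% of genes and the error of mespab that of 98.8%, against a median of 0.56 over all genes with both values above 0. All 7 log2 ratios lay more than 2 implied SE above 0. The reading has a limit: for 231 of the 2245 genes the log2 ratio was under 2 implied SE, and for 6 of them under 1, although the authors' deposited table gives each a q under 0.05. Of the 21 pairs among the 7 genes, 6 differed in log2 ratio by more than 1 combined implied SE and 0 by more than 2. The widest of these gaps, mespab minus her7, was 2.49 with a combined implied SE of 1.68. The order of the ratios within the set, including the lead of mespab, is therefore not resolved by these data. No p-value was computed for these pairs.

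**Figure D2:**
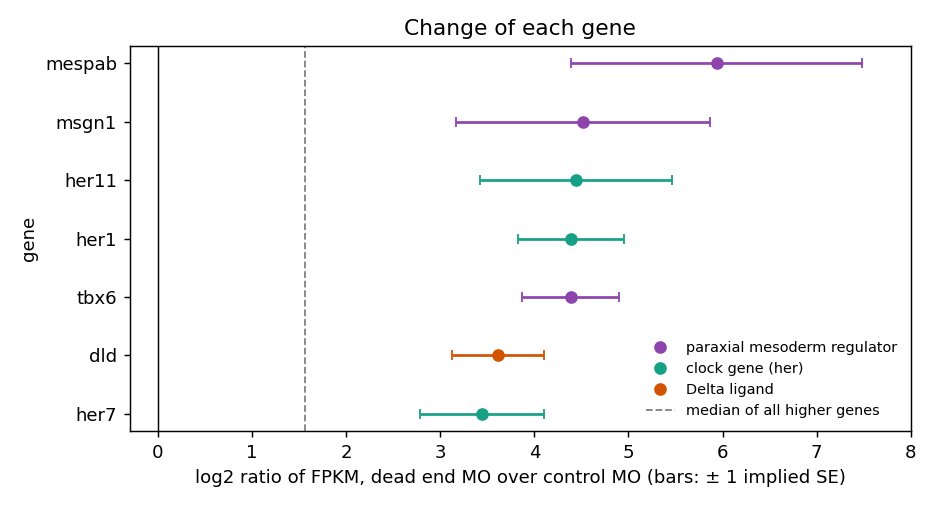
Log2 ratio of FPKM, dead end MO over control MO, for each gene (points, coloured by role), with bars of ± 1 SE implied by the authors' statistic. All 7 points lie between 3.44 and 5.94, to the right of the dashed line at 1.57, the median of all higher genes, and the bars of mespab, msgn1 and her11 are the widest.

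**Figure D3:**
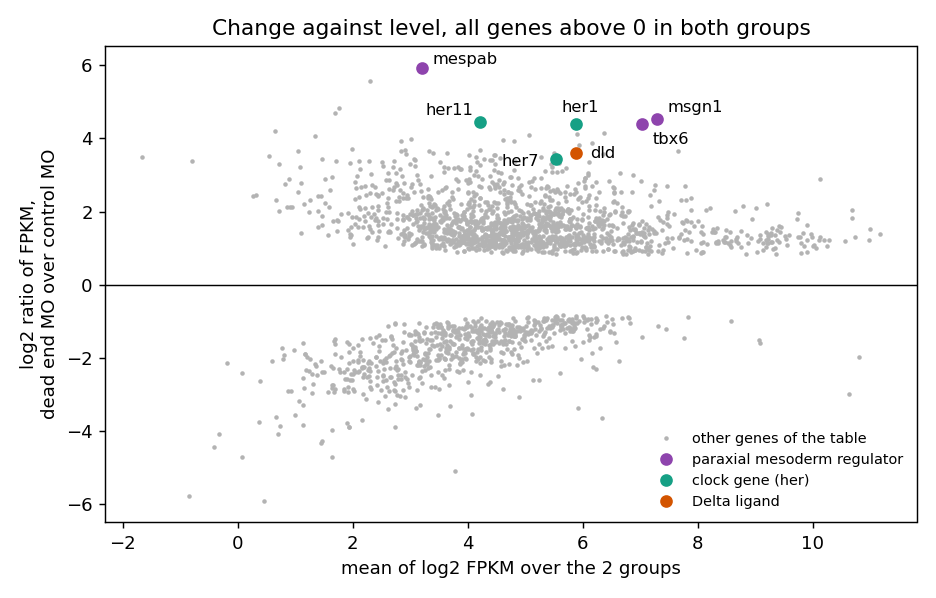
Log2 ratio of FPKM, dead end MO over control MO, against the mean log2 FPKM over the 2 groups for the 2245 genes with both values above 0 (grey) and the 7 genes (coloured). The gap around 0 is there because the table holds called genes only. The 7 genes lie in the upper part of the cloud, from low to high levels. Other genes, such as pou5f3 and myf5, lie above dld and her7.

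By position, her1 and her7 lie 12105 bases apart on chromosome 5, and her11 lies 2039 bases from her5, another repressor gene of this family that is known from the midbrain and hindbrain boundary. The gene her5 stood at 16.7 FPKM with dead end MO and 2.60 FPKM with control MO, a ratio of 6.43-fold (q = 0.0316 in the authors' deposited table). No other gene of the table lay within 50 kb of tbx6, dld or mespab. In the gene order of RefSeq (assembly GRCz12tu), the protein-coding genes that flank the 7 were 14 in number. By exact symbol the table held 3 of them, namely her1, her7 and her5. Of these, her1 and her7 flank each other and belong to the 7, so her5 is the only one found from outside the set. A flanking gene that the table lists under another name would be missed.

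Across the rest of the Hairy and Enhancer of split family, the table held 12 genes including her1, her7 and her11. All 12 were higher with dead end MO, against 65.0% of all genes of the table. Of the 9 others, helt was listed at 0 with control MO and the rest had ratios between 2.22-fold and 8.75-fold. These values lay below those of her1, her7 and her11, which were chosen with earlier results known. The gap is not resolved for all: the log2 ratio (± implied SE) was 3.13 ± 0.93 for her15.1 and 3.44 ± 0.66 for her7. The most changed was her15.1, at 65.2 FPKM with dead end MO and 7.46 FPKM with control MO. The gene hes6, whose product pairs with Her proteins in the clock, stood at 447 FPKM with dead end MO and 69.3 FPKM with control MO (6.45-fold). The gene her12, which also cycles in the presomitic mesoderm, stood at 103 FPKM with dead end MO and 24.8 FPKM with control MO. Members with main roles elsewhere were higher too, such as her6 (6.49-fold), hey1 (6.23-fold) and her9 (3.49-fold). Reads of her genes with near-identical sequence may have been split between them.

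Among T-box genes the table held 6, all higher with dead end MO, against 65.0% of all genes of the table. Besides tbx6, tbx6l (now tbx16l), a paraxial mesoderm gene, stood at 83.5 FPKM with dead end MO and 9.45 FPKM with control MO, a ratio of 8.84-fold. The Brachyury gene ta, which maintains the tailbud, had a ratio of 7.05-fold. The spadetail gene tbx16, which acts with msgn1 as cells leave the tailbud, stood at 159 FPKM with dead end MO and 39.1 FPKM with control MO, a ratio of 4.06-fold. The level of tbx16 with control MO was thus above that of tbx6, and with dead end MO it was below.

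Genes of the Notch pathway are described by role, and their counts stand beside the 65.0% of all genes of the table that were higher. Of 12 listed ligand symbols the table held 6, all higher. Next to dld, the partner ligand gene of the clock dlc (disrupted in beamter) stood at 158 FPKM with dead end MO and 17.4 FPKM with control MO, a ratio of 9.08-fold. The neural ligand genes dla and dlb had ratios of 7.35-fold and 4.04-fold, and jag2b 2.65-fold. The vascular ligand gene dll4 was at 2.49 FPKM with dead end MO and was listed at 0 with control MO. All 4 receptor genes were higher. The most abundant, notch1a, stood at 397 FPKM with dead end MO and 59.5 FPKM with control MO (6.67-fold), with an implied SE of 3.53 for a log2 ratio of 2.74. The ratios of the others were 4.86-fold for notch2, 3.43-fold for notch3 and 2.5-fold for notch1b.

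Of 26 symbols for enzymes that process or modify ligand and receptor, the table held only 4. The fringe glycosyltransferase gene lfng stood at 89.3 FPKM with dead end MO and 14.6 FPKM with control MO (6.1-fold). The ubiquitin ligase gene mib1, needed for Delta endocytosis, had a ratio of 3.10-fold, and rfng 2.5-fold. The exception was furina, a protease gene of general protein maturation, at 13.8 FPKM with dead end MO and 25.7 FPKM with control MO. Of the nuclear partners and targets of Notch the table held 14 of 29 symbols, all higher, against 65.0% of all genes of the table. Among these are her6, her9, her12, her15.1 and hey1, which were also counted in the Hairy and Enhancer of split family. The ratios of rbpja, the DNA-binding partner of Notch, and maml1, its coactivator, were 2.06-fold and 2.03-fold, the smallest of the 14. The feedback inhibitor genes nrarpb and nrarpa had ratios of 4.80-fold and 2.37-fold. Groucho corepressors, which Her proteins recruit, spread over the range: a gene that the table names si:dkey-42p8.3, and the reference names tle2b, had a ratio of 12.2-fold, tle2 5.22-fold, tle3b 3.40-fold and tle3a 2.11-fold. The medians by role were 7.35-fold for ligands, 4.08-fold for receptors, 2.78-fold for processing and 3.81-fold for nuclear genes. The ligand median includes dld, which was chosen with earlier results known, and without dld it was 5.45-fold.

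**Figure D4:**
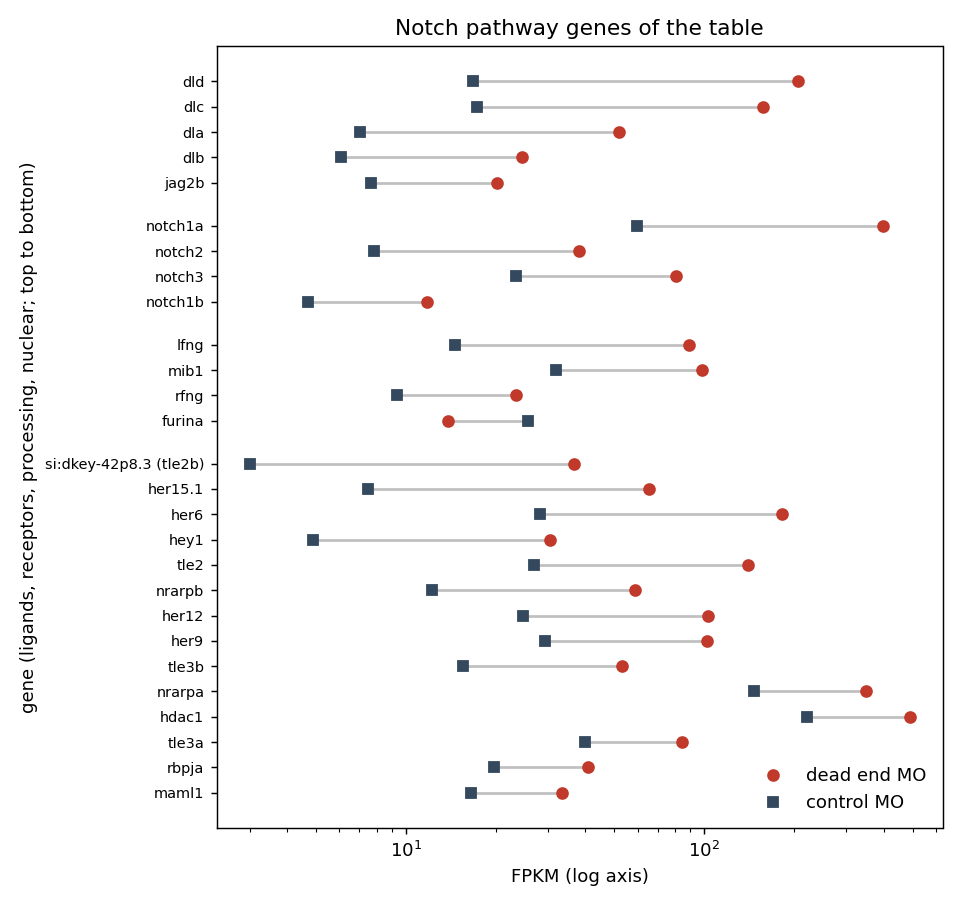
Levels in FPKM (log axis) with dead end MO (circles) and control MO (squares) for 27 Notch pathway genes of the table, grouped from top to bottom into ligands, receptors, processing and nuclear genes. The gene furina is the exception with the lower value for dead end MO, and dll4 is left out because it is listed at 0 with control MO.

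A wider list of presomitic mesoderm and somite genes had 36 genes in the table out of 56 listed symbols, some of which are older names of the same gene. All 36 were higher with dead end MO, against 65.0% of all genes of the table. The list includes the 7 genes and shares others with the lists above, such as dlc, lfng, hes6, her12, her15.1, tbx16 and tbx6l. These counts are therefore not separate. The 29 other than the 7 genes had a median of 6.45-fold and a range of 2.38-fold to 14.8-fold. Of the 2245 genes with both values above 0, 2.63% reached 10-fold, and of these 29 it was 3. The 3 were the forkhead factor gene foxc1a, the protocadherin gene pcdh8 of the presomitic mesoderm, and aldh1a2, the enzyme of retinoic acid synthesis in somites. They stood at 275, 159.5 and 79.0 FPKM with dead end MO, against 18.6, 13.6 and 7.12 FPKM with control MO. The gene ripply1, whose product ends Tbx6 activity where a somite forms, stood at 137 FPKM with dead end MO and 13.9 FPKM with control MO (9.84-fold). The somite homeobox gene meox1 had a ratio of 8.55-fold.

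The signals that space somites come from the tailbud (FGF and Wnt) and from the somites (retinoic acid). Of 42 listed symbols of these pathways 25 were in the table, all higher, against 65.0% of all genes of the table. Their median was 4.78-fold, and aldh1a2 among them is also in the presomitic mesoderm and somite list. The retinoic acid degrading enzyme gene cyp26a1 of the tailbud stood at 220.1 FPKM with dead end MO and 21.6 FPKM with control MO (10.2-fold). The ligand genes fgf17 and fgf8a had ratios of 9.40-fold and 7.46-fold, the FGF receptor gene fgfr4 6.52-fold and the FGF antagonist gene il17rd 5.92-fold. The Wnt target gene sp5l stood at 348 FPKM with dead end MO and 48.4 FPKM with control MO (7.19-fold). For tailbud progenitor markers 11 of 25 symbols were in the table, all higher against the same 65.0%. They included msgn1, ta and tbx16, which earlier lists also counted. The median of the 11 was 5.80-fold, and without msgn1, which was chosen with earlier results known, it was 5.32-fold. Among them cdx4, of the posterior body, stood at 481 FPKM with dead end MO and 117 FPKM with control MO (4.09-fold).

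The authors' deposited enrichment table for higher genes, made with PANTHER against all zebrafish genes, held 374 terms, of which 9 have names about segmentation, somites, mesoderm, Notch or the anterior and posterior axis. The term somitogenesis counted 38 genes there at 8.50-fold enrichment. The term Notch signaling pathway counted 15 genes at 7.21-fold in the same authors' table. Somite specification counted 7 genes at 9.30-fold, as did segment specification. By the corrected p-value of that PANTHER enrichment, somitogenesis ranked 89 and Notch signaling pathway 218 of the 374 terms. Both specification terms ranked 370, near the end of the list. None of the 21 terms in the authors' deposited table for lower genes matched those words, a list too short to read a contrast from. These terms come from the same comparison as the values above and are no independent evidence.

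Markers of other somatic tissues moved in the same direction as the 7 genes, which is also the direction of 65.0% of all genes of the table. The lists share some genes, so their counts and sums are not fully separate. The gene foxa2 is in both the notochord and endoderm lists. The notochord gene ta, at 199 FPKM with dead end MO, and the neural genes sox2 and sox3 are also tailbud progenitor markers. Summed over the list genes in the table, neural markers (19 of 19 higher, median 5.79-fold) gave 1259 FPKM with dead end MO and 191 FPKM with control MO. Muscle markers (6 of 7 higher, median 8.32-fold) gave 594 FPKM with dead end MO and 74.0 FPKM with control MO, and tnnt1 was listed at 0 with dead end MO. Notochord markers (8 of 8, median 8.36-fold) gave 510.4 FPKM with dead end MO and 76.8 FPKM with control MO, and endoderm markers (7 of 7, median 6.21-fold) gave 221 FPKM with dead end MO and 40.5 FPKM with control MO. Epidermal markers (7 of 7, median 5.25-fold) gave 692 FPKM with dead end MO and 276 FPKM with control MO. Blood and vessel markers (4 of 4, median 8.89-fold) gave 53.1 FPKM with dead end MO and 6.71 FPKM with control MO. The genes sox32 of endoderm, elavl4 of neurons and fli1b of vessels were listed at 0 with control MO. With dead end MO they were low too, at 3.22, 0.944 and 0.848 FPKM. Germ cell markers (1 of 15 higher) gave 2416 FPKM with dead end MO and 10609 FPKM with control MO, with none listed at 0, while the 7 genes gave 2139 FPKM with dead end MO and 110.4 FPKM with control MO. Whether somatic cells in the sorted samples had a part in the change of the 7 genes was not tested.

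**Figure D5:**
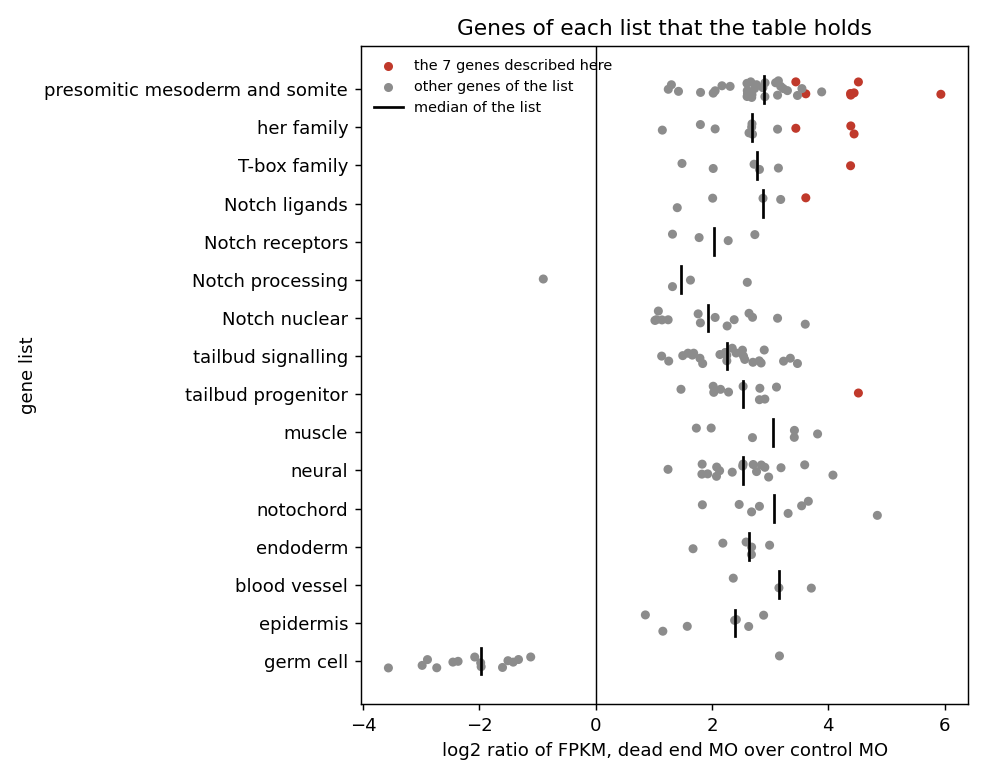
Log2 ratio of FPKM, dead end MO over control MO, of the genes of each list that are in the table and above 0 in both groups (points, with a black line at the list's median). Of the 7 genes (red), mespab, msgn1, her11, her1 and tbx6 lie to the right of all other genes of the presomitic mesoderm and somite list, and the germ cell list has 14 genes below 0 and 1 above.

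Leaving out the 7 themselves, the 8 genes of the table whose pair of values lay nearest to the median point of the 7, by Euclidean distance in log2 of (FPKM + 1) over the 2 group values, were myf5, pou5f3, pcdh8, irx7, cxcl12b, dlc, sfrp1a and foxc1a. The nearest of these, the myogenic factor gene myf5, stood at 229.7 FPKM with dead end MO and 16.3 FPKM with control MO, at a distance of 0.25. The next, the pluripotency factor gene pou5f3, stood at 247 FPKM with dead end MO and 14.3 FPKM with control MO, at a distance of 0.26. Among the 8, pcdh8, dlc and foxc1a also stand in the presomitic mesoderm and somite list, while irx7 is a gene of the midbrain and hindbrain. With 2 values per gene, such likeness is a match of levels only.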

How the data were processed

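Sorted germ cells of 4 libraries were grouped by the morpholino in the sample titles. Per the submitters' processing notes, the tools included STAR 2.5.2b, cutadapt 1.10, Cuffdiff and Cufflinks 2.2.1. The notes give Zv9 and GRCz10 as builds with no role for either. The build of the positions is not stated, and GRCz10 was assumed. RNA was selected as mRNA and made into directional libraries, per the labels' protocols, and whether a morpholino group's libraries came from separate clutches is not given, nor is the strand setting of the quantification.

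The authors deposited 1 FPKM value per gene and group, the log2 ratio, a test statistic (a score) and p-values with q-values. The authors' enrichment tables give a count of genes per term, the ratio of observed to expected genes (fold enrichment) and a corrected p-value, per the file headers. Because the table has 1 value per group, no test was run here, and the fit across all genes that was planned for values per library could not be used.

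Ratios were computed from the deposited FPKM values with no pseudocount and differed from the deposited log2 ratios by at most 0.001. Genes with a value listed at 0 (232) have no ratio. Lists were matched by symbol or by a table of reference names, which covered 2408 of the 2477 identifiers. No column of values per sample was left unused. The members and lists were chosen with earlier results of these data known. Named genes are the 7, up to 8 others per segmentation, Notch, T-box or tailbud list and up to 4 per other list by absolute change in log2 of (FPKM + 1), and the 8 nearest genes. Named outside this rule, with values known, were nanos3, ddx4, rbpja, maml1, nrarpa, tle3b, tle3a, cdx4, sox2, genes listed at 0, chromosome neighbours, dldh and the closing section's genes. Alternatives were pseudocounts of 0.1 and 1, q under 0.01, and minimums of 1 and 5 FPKM. The neighbours of msgn1 are not reported here. The code for ratio, error and list counts was run on simulated data. Those data were built on the same reading of the statistic, so that reading itself was not tested. Python 3.11.15, pandas 2.3.3 and numpy 2.4.6 were used.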

Additional observations from a re-analysis of the deposited data

How the results depend on the processing

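The median log2 ratio of the 7 genes (4.39) moved by less than the median implied SE with a pseudocount of 0.1 or 1, and so did each gene's own ratio relative to its own implied SE. The counts of members higher with dead end MO and of members at least 10-fold higher stayed within 1.5 times under every alternative run. The count at least 20-fold higher was added after seeing the data, under each pseudocount. It was 5 with no pseudocount and 3 with a pseudocount of 1. Adding 1 FPKM to both values lowers the ratio of genes that are low with control MO, and her1 and her11 then stood at 19.5-fold and 17.6-fold. At q under 0.01 the number of higher notochord markers was 5, against 8 at q under 0.05, while the other 15 of 16 lists stayed within 1.5 times. No paired analysis was possible because the table gives 1 value per group, and for the same reason leaving out a replicate was not run. Depth is unknown, so how counting error limits low values such as mespab with control MO (1.18 FPKM) could not be computed.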

Other observations

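Besides the segmentation genes, 3 genes of the table had a ratio of at least 20-fold, a limit set after seeing the data, with both values above 0. These were admp, a BMP family ligand gene of the organizer (33.9 FPKM with dead end MO and 0.712 FPKM with control MO), the Hedgehog ligand gene shhb (18.3 FPKM with dead end MO and 0.636 FPKM with control MO) and phox2a, a gene of autonomic and hindbrain neurons (16.5 FPKM with dead end MO and 0.633 FPKM with control MO). Each of them lay under 1 FPKM with control MO. Of the 5 segmentation genes past that ratio, msgn1, tbx6, her1, her11 and mespab had 32.8, 28.6, 13.0, 3.98 and 1.18 FPKM with control MO, so mespab lay close to the level of those 3 genes.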
